A study of Drosophila melanogaster with 150 samples.

Results

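The arrays of this study fell into a group with high and a group with low signal of MtnB, a metallothionein gene, and the comparison of these groups is described here. The arrays were chosen by their measured MtnB signal, placed in the MtnB-high class when it was above 10 on the log2 scale and in the MtnB-low class otherwise. The high class held 76 of the 150 arrays and the low class held 74. The study hybridised RNA of whole adult males of Drosophila melanogaster to Affymetrix arrays, for 75 recombinant inbred lines named roo lines. Each line had 1 array labelled control, from flies reared on food with 250 uM sodium acetate, and 1 array labelled lead, from flies reared on food with 250 uM lead acetate. Parents, 20 of each sex, were kept for 3 days in a vial holding 10 ml of food at 25 °C. From every vial 65 sons, 5 to 10 days old, were frozen together. P-values therefore measure the spread between pools of flies, with a single pool per line and diet.

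The classes ignore the labels. The high class held 36 arrays labelled control and 40 labelled lead, and the low class held 39 labelled control and 35 labelled lead. In 23 lines both arrays were high and in 22 both were low, while 13 lines were high only in the array labelled control and 17 only in the array labelled lead. The classes are therefore not read as flies with and without lead, and every difference below is MtnB high minus MtnB low.

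Metallothioneins bind copper, zinc, cadmium and other metals through their many cysteines. In Drosophila their genes are switched on by the metal-responsive transcription factor MTF-1 when metal is in excess. The midgut is a main site of metal uptake and storage, where ferritin holds iron and families of transporters move zinc and copper across membranes.

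The array medians lay between 5.29 and 5.55, and no array was normalized again. An array's median correlation with the others averaged 0.983 ± 0.00450 (SD, n = 76) in the high class and 0.979 ± 0.00484 (SD, n = 74) in the low class, a difference past the threshold in a 2-sided permutation test (p = 1e-05, the smallest these permutations can give, adjusted over 6 measures 6e-05). Of the 8 arrays of lowest correlation, 1 was high and 7 were low. The 3′ minus 5′ signal of the Act5C control, a measure of RNA and labelling quality, averaged 2.60 ± 0.503 (SD, n = 76) in the high class and 2.87 ± 0.631 (SD, n = 74) in the low class (permutation p = 0.00434, adjusted p = 0.0130). The like difference of GAPDH went the other way, 3.17 against 2.97, and did not pass (permutation p = 0.0513, adjusted p = 0.103). The male label was checked against a list of yolk and eggshell genes, here with 2 members that share only its symbol pattern. Its mean signal had a median of 4.03 in the high class and 4.17 in the low class, against 8.45 and 8.50 for a list of testis genes. The highest array mean of the yolk and eggshell list was 9.07 in the high class and 7.59 in the low class. Whether those pools held females was not tested.

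MtnB, which made the split, is given as a description with no test. Its signal ran from 4.40 to 8.99 in the low class, with a median of 6.43, and from 11.02 to 13.53 in the high class, with a median of 12.94. The array nearest below the threshold was labelled control, at 8.99, and the array nearest above it was also labelled control, at 11.02. No array lay in the 2.03 between them. Within the high class MtnB averaged 12.81 ± 0.60 (SD, n = 36) on arrays labelled control and 12.83 ± 0.37 (SD, n = 40) on arrays labelled lead. Within the low class the same means were 6.59 ± 0.97 (SD, n = 39) and 6.28 ± 1.07 (SD, n = 35).

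The other measured metallothioneins, MtnD, MtnC and MtnA, were all higher in the high class. MtnD ran from 6.40 to 10.97 with a median of 8.62 on the low arrays, and from 10.59 to 13.03 with a median of 12.35 on the high arrays. The classes nearly separated: 1 low array lay above the lowest high array, and no low array reached the median of the high class. The difference was 3.72 ± 0.109 (SE) on the log2 scale, 13.2-fold (limma adjusted p = 1.32e-68). MtnC ran from 7.90 to 11.92 with a median of 10.25 on the low arrays, and from 11.27 to 13.43 with a median of 12.71 on the high arrays. Here 10 low arrays lay above the lowest high array, and the difference was 2.52 ± 0.118 (SE), 5.72-fold (limma adjusted p = 1.34e-43).

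MtnA was bright on every array and had a smaller difference. It ran from 12.03 to 13.83 with a median of 13.26 in the low class and from 12.55 to 14.04 with a median of 13.67 in the high class. The ranges overlapped widely, with 65 low arrays above the lowest high array, and the difference was 0.45 ± 0.063 (SE) (limma adjusted p = 1.74e-09). These 3 of 3 calls stand against a background in which 28.7% of the 18768 tested probe sets were called at an adjusted p under 0.05, or 35.8% of 11981 genes with 1 probe set each, of which 15.5% were higher and 20.3% lower. The highest MtnA value, 14.04, is the highest of the whole table, and whether its probe set was near saturation was not tested. MtnA and its relatives are similar genes, and whether their probes bind each other's transcripts was not tested. MtnE was not analysed here.

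**Figure D1:**
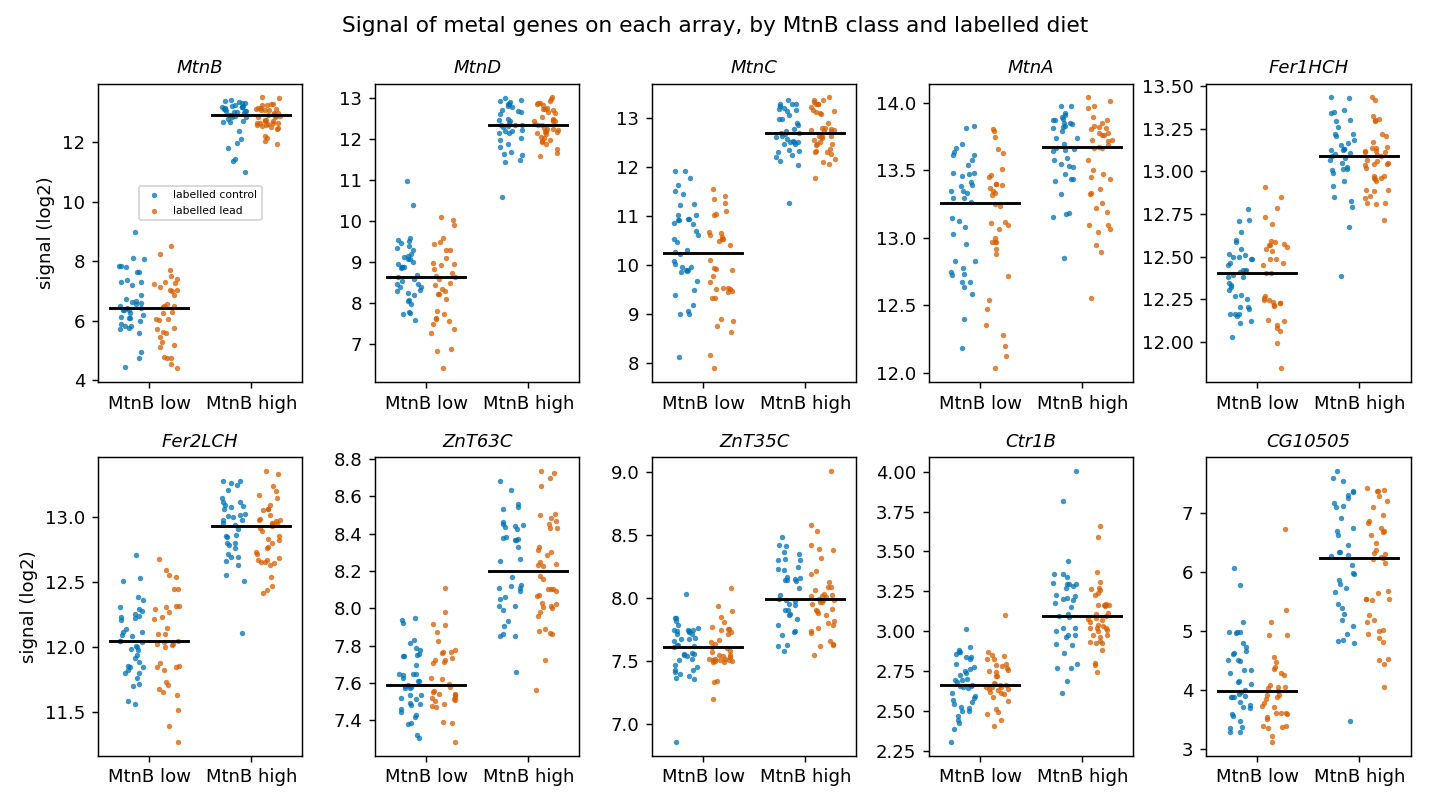
Each point is 1 array, with the log2 signal on the vertical axis, the MtnB class on the horizontal axis, the labelled diet by colour and the class median as a bar. MtnB has a gap of 2.03 between the classes by the choice of the split, MtnD nearly separates with 1 low array above the lowest high array, and MtnA overlaps widely.

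The lines with an array in each class gave the same order, as far as the line labels hold. Arrays of a labelled line were little more alike than others: 1 of 75 arrays labelled control was closest to its own line's other array. Between lines limma called 2 of 18768 probe sets, with 2317 at an unadjusted p under 0.05. Whether some arrays carry another line's label was not tested, and every value within lines or with the line as a block rests on these labels. In all 30 such lines the high array was above the low array of its own labelled line for MtnD, by 2.52 to 5.36 with a median of 3.74. MtnC was higher on the high array in 30 of 30 lines, by 0.37 to 4.29 with a median of 2.50.

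**Figure D2:**
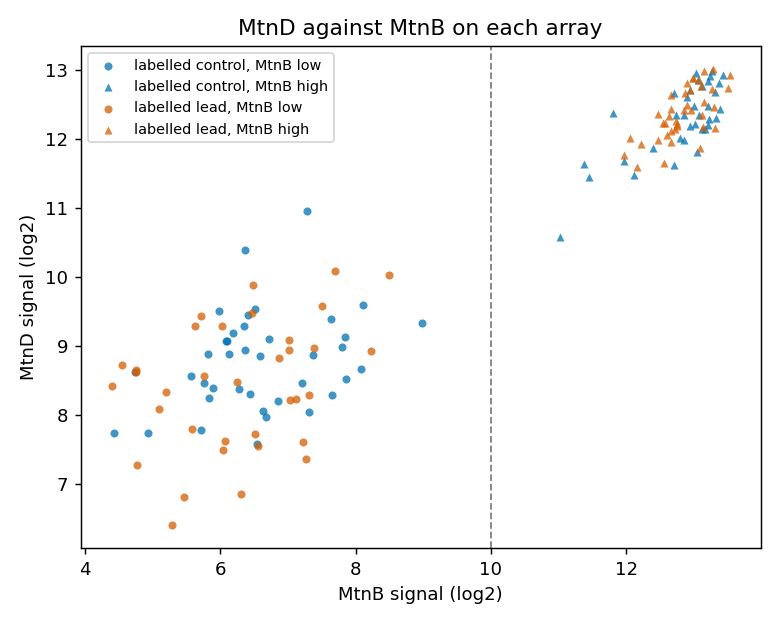
MtnD signal on the vertical axis is plotted against MtnB signal on the horizontal axis, both log2, for the 150 arrays, with colour for the labelled diet, shape for the class and a dashed line at the threshold of 10. The arrays form 2 clouds, and both labelled diets occur in each.

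Among the genes of metal response and transport, 13 of 27 measured members were higher in the high class and 1 was lower, against 15.5% and 20.3% of all genes. Their median difference was 0.13, against -0.021 over all genes. The regulator itself, MTF-1, ran from 6.27 to 7.60 with a median of 6.95 on the low arrays and from 6.62 to 7.96 with a median of 7.25 on the high arrays. It was higher by 0.36 ± 0.048 (SE) (limma adjusted p = 5.61e-10), with overlapping classes. The most changed member was CG10505, an ABC transporter gene. It ran from 3.11 to 6.73 with a median of 3.99 in the low class and from 3.48 to 7.72 with a median of 6.24 in the high class. The ranges overlapped widely, with 63 low arrays above the lowest high array and 53 high arrays below the highest low array. Past the medians the overlap was small, with 1 low array above the high median and 1 high array below the low median. The difference was 1.94 ± 0.138 (SE) (limma adjusted p = 4.45e-26).

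Of the 7 measured genes of the ZnT family of zinc exporters 3 were called, all higher. Of all genes 35.8% were called and 15.5% were higher. ZnT63C ran from 7.28 to 8.11 with a median of 7.59 in the low class and from 7.56 to 8.74 with a median of 8.20 in the high class, a difference of 0.59 ± 0.037 (SE) (limma adjusted p = 6.64e-31). ZnT35C was higher by 0.42 ± 0.038 (SE) (limma adjusted p = 2.15e-18), and ZnT41F by 0.34 ± 0.038 (SE) (limma adjusted p = 1.25e-13). No low array reached the high median of ZnT63C, and 2 low arrays reached that of ZnT35C. The ranges still overlapped, with 43 and 46 low arrays above the lowest high array of ZnT63C and ZnT35C. ZnT49B, ZnT77C, ZnT86D and ZnT33D were not called, with differences between -0.08 and 0.06.

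Among the ZIP family of zinc and iron transporters, Zip89B was higher by 0.51, Zip48C by 0.40, Zip99C by 0.23 and Zip88E by 0.21 in the same fit. Zip89B was not called with the labelled line as a block (0.31, limma adjusted p = 0.0851). Of the copper genes, the importer gene Ctr1B was dim, from 2.30 to 3.10 with a median of 2.66 on the low arrays and from 2.61 to 4.01 with a median of 3.10 on the high arrays, and was higher by 0.44 ± 0.032 (SE) (limma adjusted p = 1.17e-24). The copper chaperone gene Atox1 was higher by 0.13 ± 0.017 (SE), while Ctr1C was lower, with a difference of -0.23 ± 0.055 (SE). The call of Ctr1C was lost with the line block (-0.12, adjusted p = 0.468). Ctr1A and the copper pump gene ATP7 were not called, at 0.09 and -0.01. The list's other calls were the Nramp-type transporter gene Mvl at 0.16, lost with the block (adjusted p = 0.350), and whd, a carnitine palmitoyltransferase gene rather than a transporter, at 0.34.

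Ferritin, the iron storage protein, rose in both of its main subunits. The heavy chain gene Fer1HCH ran from 11.84 to 12.91 with a median of 12.40 on the low arrays and from 12.39 to 13.44 with a median of 13.09 on the high arrays. The light chain gene Fer2LCH ran from 11.27 to 12.71 with a median of 12.04 and from 12.11 to 13.35 with a median of 12.93. For both genes no low array reached the median of the high class, though 39 and 30 low arrays lay above the lowest high array. The differences were 0.69 ± 0.034 (SE) for Fer1HCH (limma adjusted p = 9.41e-42) and 0.84 ± 0.044 (SE) for Fer2LCH (limma adjusted p = 3.59e-38). In the 30 lines with both classes Fer1HCH was above on the high array every time, by 0.13 to 1.20. Of 8 iron genes 3 were called, all higher, beside 35.8% of all genes called and 15.5% higher. The transferrin gene Tsf1 was the remaining call, at 0.26, and was not called with the line block (0.09, adjusted p = 0.745). Fer3HCH, Tsf2, Tsf3, fh and mfrn lay between -0.05 and 0.06 and were not called.

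Of 8 measured genes of heme synthesis and breakdown 3 were called, a share close to the 35.8% of all genes. The second enzyme of this pathway is a known target of lead. Pbgs, which encodes that enzyme, porphobilinogen synthase, was higher by 0.22 ± 0.069 (SE) (limma adjusted p = 0.0105) and Coprox by 0.16 ± 0.023 (SE). FeCH, the ferrochelatase gene, was lower, with a difference of -0.19 ± 0.034 (SE), though its other 2 probe sets were not called. The call of Pbgs was lost with the line block (0.24, adjusted p = 0.188).

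Over all probe sets 5394 of 18768 were called (28.7%), 2203 higher (11.7%) and 3191 lower (17.0%). Most differences were small, with a median of 0.21 for the higher and -0.15 for the lower, and 7183 probe sets had an unadjusted p under 0.05. Large differences went mainly upward, with 79 called probe sets higher by more than 1 and 2 lower by more than 1. The classes overlapped in every probe set. The high array was above the low array in more than 90% of the 5624 pairs for 38 probe sets and in fewer than 10% for 2. With the labelled line as a block, which uses the 30 lines that hold both classes, 1684 probe sets were called (8.97%), 884 higher and 800 lower, and 1626 of them were calls of the same direction without the block.

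Many genes of glutathione metabolism, which detoxifies reactive compounds, were higher in the high class. Of 37 glutathione transferase and glutathione synthesis genes 22 were higher and 3 lower, with a median difference of 0.23, against 15.5% of all genes higher and 20.3% lower. GstD2 ran from 3.86 to 8.56 with a median of 5.93 on the low arrays and from 5.16 to 10.98 with a median of 8.01 on the high arrays, a difference of 2.02 ± 0.197 (SE) (limma adjusted p = 1.37e-16). GstE7 followed at 1.45 ± 0.136 (SE), GstD5 at 1.03 ± 0.147 and GstD9 at 0.89 ± 0.068. Both subunit genes of glutamate cysteine ligase, the first enzyme of glutathione synthesis, were higher, Gclm by 0.29 and Gclc by 0.27. The 3 lower genes were se at -0.45, GstS1 at -0.24 and GstE14 at -0.19. With the line block 18 members were higher and 0 lower, where 884 of all 18768 probe sets were higher and 800 lower.

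Of 81 cytochrome P450 genes 34 were higher and 6 lower, against 15.5% and 20.3% of all genes, with a median difference of 0.08. With the line block 17 were higher and 2 lower, where 884 of all 18768 probe sets were higher and 800 lower. Cyp12c1 was higher by 1.29 ± 0.163 (SE) (limma adjusted p = 4.28e-11) and Cyp6d2 by 1.19 ± 0.104 (SE) (limma adjusted p = 1.50e-19), while Cyp309a1 rose by 0.84 and Cyp4d14 by 0.78. Cyp4p3 had the largest fall of the list, -0.62. The symbol pattern of this list also takes Cyp1 and Cyp40, which encode cyclophilins and were left out of the count. Of 11 oxidative stress genes 2 were higher and 1 lower, beside the same 15.5% and 20.3% of all genes. Trxr1, a thioredoxin reductase gene, was higher by 0.35 ± 0.038 (SE), and Prx6a by 0.11. Sod2, the mitochondrial superoxide dismutase gene, was lower, at -0.12. The calls of Prx6a and Sod2 were lost with the line block (adjusted p = 0.424 and 0.470).

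Genes outside the metal lists were also among the 15 with the largest rise. Fst, a gene known for its induction by cold, ran from 5.34 to 9.12 with a median of 6.26 in the low class and from 5.91 to 10.30 with a median of 8.16 in the high class, a difference of 1.69 ± 0.141 (SE) (limma adjusted p = 8.24e-21). The glycosyltransferase gene Ugt302E1 rose by 1.82 ± 0.114 (SE), and tobi, an alpha-glucosidase gene known as a target of insulin signalling, by 1.63 ± 0.149 (SE). CG12766 rose by 1.71 ± 0.096 (SE), with the high array above in 97.2% of pairs. CG11893 at 1.94, CG13078 at 1.77, CG34040 at 1.71 and CG15784 at 1.61 completed those without a described role here.

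Of 36 measured gut digestive enzyme genes 27 were higher and 2 lower, against 15.5% and 20.3% of all genes, with a median difference of 0.77. With the line block 15 were higher and 1 lower, where 884 of all 18768 probe sets were higher and 800 lower. The lysozyme gene LysX ran from 3.75 to 9.27 with a median of 6.66 on the low arrays and from 6.38 to 10.51 with a median of 8.33 on the high arrays, a difference of 1.75 ± 0.162 (SE) (limma adjusted p = 4.92e-18). The serine protease genes Jon25Bii, Jon25Bi and Jon66Ci rose by 1.67, 1.53 and 1.23. All 8 measured Mal-A maltase genes rose, by 0.14 to 1.13. Jon74E, another serine protease gene, and the maltase gene Mal-B1 fell, with differences of -0.77 and -0.62. The list's mean signal per array ran from 6.25 to 9.52 with a median of 8.61 in the low class and from 7.51 to 9.73 with a median of 9.20 in the high class. In whole-body RNA fewer cells of a type and less RNA per cell cannot be told apart.

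**Figure D3:**
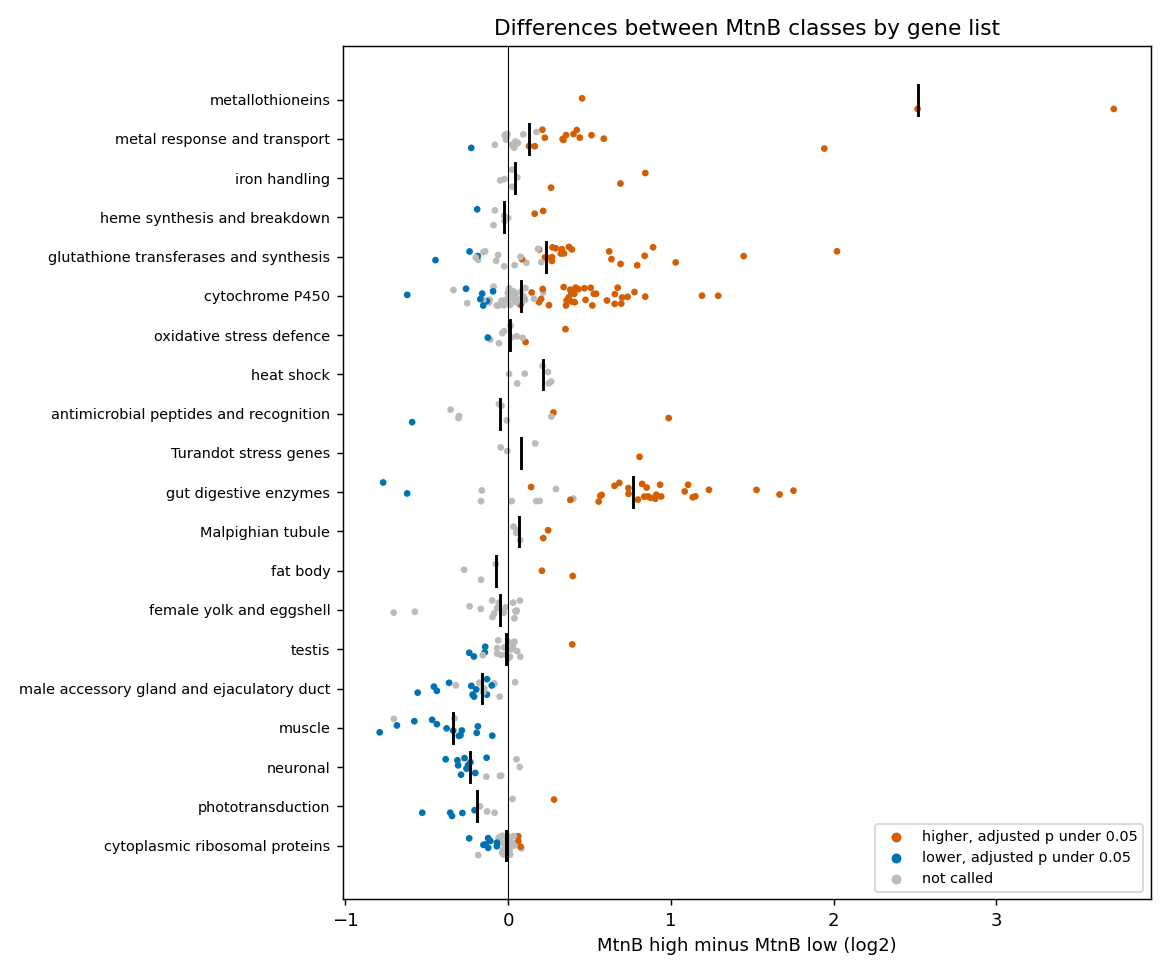
Each point is a gene of a list, one probe set each, with its MtnB high minus MtnB low difference (log2) on the horizontal axis, coloured by the limma call, and the black bar is the list's median. Gut digestive enzymes have a median of 0.77 and muscle genes of -0.34. The P450, yolk and eggshell and accessory gland lists are drawn here with the 5 members that share only the symbol pattern.

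Genes of muscle, neurons and the male accessory gland were lower in the high class. Of 15 muscle genes 13 were lower and 0 higher, with a median of -0.34, against 20.3% of all genes lower. TpnC4, a flight muscle troponin C gene, ran from 5.09 to 12.07 with a median of 9.34 on the low arrays and from 3.97 to 12.01 with a median of 8.34 on the high arrays. The classes overlapped over almost their whole range, with a difference of -0.79 ± 0.292 (SE) (limma adjusted p = 0.0306). Act88F, the flight muscle actin gene, was lower at -0.68 ± 0.254 (SE), TpnC41C at -0.58 ± 0.135 and Act79B at -0.47 ± 0.142. With the line block 4 muscle genes were lower, where 800 of all 18768 probe sets were lower. TpnC4, Act88F and Act79B were not called there (adjusted p = 0.134, 0.115 and 0.0925).

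Of 15 neuronal genes 10 were lower and 0 higher, against 20.3% of all genes lower, with a median of -0.23. With the line block 5 were lower, where 800 of all 18768 probe sets were lower. The RNA-binding protein gene fne was lower at -0.38 ± 0.071 (SE), the synaptic fusion gene Snap25 at -0.31 ± 0.050, the GABA synthesis gene Gad1 at -0.31 ± 0.055 and the synaptic vesicle priming gene unc-13 at -0.29 ± 0.046. Of 10 phototransduction genes 5 were lower, and 3 with the line block, among them the channel gene trpl at -0.53 ± 0.079 (SE) and the kinase gene rdgA at -0.34 ± 0.055, for which all 4 probe sets were lower. Arr1, an arrestin gene, was higher at 0.28 ± 0.066 and lost its call with the block (0.16, adjusted p = 0.422). Galphaq was lower at -0.36 by its brightest probe set, which was not called with the block (adjusted p = 0.0629), while another of its probe sets was higher by 0.14.

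Of 21 accessory gland genes, which encode seminal fluid proteins, 11 were lower and 0 higher, against 20.3% of all genes lower, with a median of -0.15. Acp26Aa was lower at -0.46 ± 0.072 (SE), Acp53C14c at -0.56 ± 0.136, Acp76A at -0.44 ± 0.121 and Acp63F at -0.36 ± 0.077. With the line block only Acp26Aa of the 21 was lower (adjusted p = 0.00903), where 800 of all 18768 probe sets were lower. The other 3 named had adjusted p of 0.185, 0.158 and 0.102. A further gene that the symbol pattern takes, the cuticle protein gene Acp65Aa, was left out of this count.

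**Figure D4:**
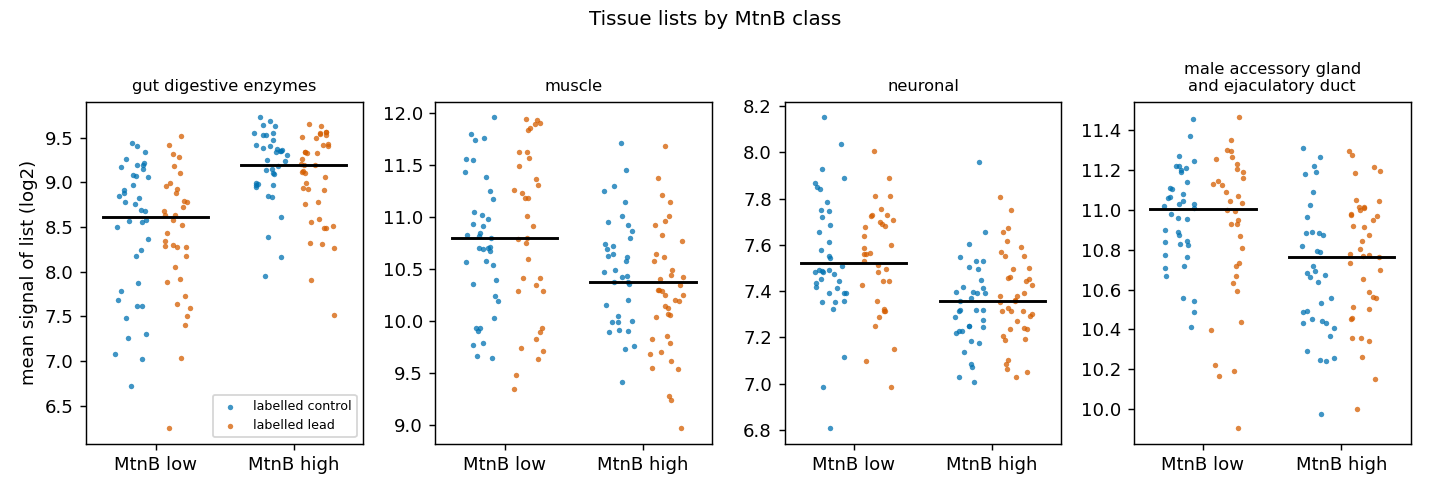
The mean log2 signal of 4 gene lists on each array is drawn by MtnB class, with colour for the labelled diet and the class median as a bar. The accessory gland list is drawn with Acp65Aa, which shares only its symbol pattern. The medians of the gut list are 8.61 in the low and 9.20 in the high class and those of the muscle list are 10.80 and 10.37, with wide overlap in both.

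Since tissue lists moved with the class, the fit was repeated with the array means of 7 of them (gut, muscle, testis, accessory gland, yolk and eggshell, fat body and neuronal) as covariates, an alternative chosen after seeing the data. A total of 3420 probe sets were then called (18.2%), 1448 higher and 1972 lower, and 2430 were calls of the same direction without the covariates. A further 26 were called in both fits with opposite directions. MtnD was then higher by 3.29, MtnC by 1.97, Fer1HCH by 0.55, Fer2LCH by 0.67, CG10505 by 1.52, ZnT63C by 0.51 and GstD2 by 1.97, all still called by limma. The difference was 0.20 for MtnA and 0.14 for MTF-1, both still called (limma adjusted p = 0.0111 and 0.00214). Of the glutathione list 18 members were higher and 0 lower, 17 of them higher without the covariates too, and of metal response and transport 12 were higher and 2 lower, 11 of the 12 also without them. The P450 list had 18 higher and 12 lower members, and the ribosomal protein list 0 higher and 21 lower, against 3 and 8 without the covariates. The covariates hold the genes of the tissue lists themselves, so the values of those lists in this fit are not read.

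The genes with the largest fall were of other kinds. The gene phu had the lowest difference of all named probe sets. It ran from 4.39 to 11.01 with a median of 6.91 on the low arrays and from 3.64 to 10.43 with a median of 4.76 on the high arrays, a difference of -1.89 ± 0.257 (SE) (limma adjusted p = 7.25e-10). The alkaline phosphatase gene Alp2 ran from 6.93 to 12.46 with a median of 9.48 and from 6.70 to 11.22 with a median of 8.25, a difference of -1.29 ± 0.180 (SE) (limma adjusted p = 1.74e-09). Both genes spanned nearly the same range in each class, with the bulk of the high arrays lower. Alp8, another alkaline phosphatase gene, was lower at -0.99 and lost its call with the line block (adjusted p = 0.216). It was dim on most arrays, with medians of 3.35 in the low and 3.01 in the high class and highest values of 10.09 and 9.13.

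The other genes of the 15 with the largest fall ranged from -0.98 to -0.84. They include the cuticle protein gene Cpr72Ec at -0.98, the gustatory receptor gene Gr98a at -0.89, the odorant binding protein gene Obp56e at -0.88, the muscle kinase gene Strn-Mlck at -0.88 and the muscle LIM protein gene Mlp60A at -0.87. Both other probe sets of Mlp60A were lower too, and 1 of 2 for Strn-Mlck. The remaining genes were CG6295, CG17192, CG11608, CG13947, CG11854, CG15617 and CG6839. The calls of CG17192, CG11854, CG15617 and Strn-Mlck were lost with the line block (adjusted p = 0.135, 0.383, 0.198 and 0.143).

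The class difference was next compared between the labelled diets, which share no arrays. On the arrays labelled control 4559 probe sets were called (24.3%) and on the arrays labelled lead 2325 (12.4%). The 1435 called in both were 31.5% of the first list and 61.7% of the second, and 1434 of them had the same direction. MtnD was higher by 3.51 ± 0.143 (SE) on arrays labelled control and by 3.95 ± 0.159 on arrays labelled lead, MtnC by 2.29 ± 0.163 and 2.76 ± 0.162, Fer1HCH by 0.71 and 0.67, CG10505 by 1.95 and 1.96, and GstD2 by 2.12 and 1.91.

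No probe set passed in limma's test of class by labelled diet (0 of 18768 called, 0.0%), with 1645 at an unadjusted p under 0.05 and a smallest adjusted p of 0.227. The interactions of MtnD, 0.45 ± 0.216 (SE), and MtnC, 0.46 ± 0.232 (SE), had an adjusted p of 0.554. The 5 genes of smallest p were CG9168 at 0.77, CG43111 at 0.57, CG11977 at 0.61, Obp56i at 0.51 and CG13982 at -0.20, each with an adjusted p of 0.227. With a median SE of 0.070 these are estimates with their errors and do not show that the classes differ alike in the labelled diets. Between the labelled diets themselves limma called 0 probe sets (458 at an unadjusted p under 0.05), and 0 with the class as a covariate (472).

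**Figure D5:**
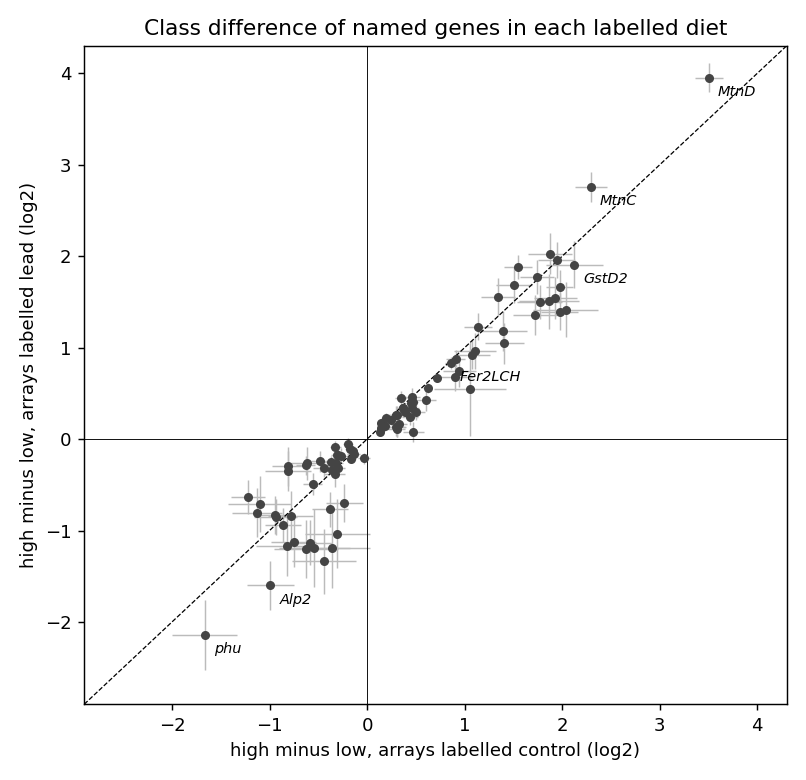
Each point is a named gene called between the classes, with its MtnB high minus MtnB low difference (log2) on the 75 arrays labelled control on the horizontal axis and on the 75 arrays labelled lead on the vertical axis. Genes named only for their place near MtnB, their class by labelled diet p or their correlation with MtnB are not drawn. Bars are SE and the dashed line marks equal values. The genes were chosen for their difference over all arrays, and MtnD stands at 3.51 and 3.95.

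Within a class the choice of arrays does not fix how genes follow MtnB, and the genes most like it are given as a description over arrays that share a normalization. Over the 76 high arrays the Pearson correlation with MtnB was highest for MtnD at 0.73, Fer1HCH at 0.68, Fer2LCH at 0.66, ZnT63C at 0.63, hiro at 0.57 and the eye pigment gene cl at 0.57. The 5th to 95th percentile over 11981 genes was -0.22 to 0.28. The lowest were Rat1 at -0.47, CG43897, Cpr66D, Trf4-1, Jon74E and CG12075, the last at -0.42. In the high class MtnA had 0.55, ZnT35C 0.56, CG10505 0.45, MtnC 0.43 and MTF-1 0.35.

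Over the 74 low arrays the correlations were weaker. The highest were MtnC and gem, both at 0.42, CG30091 at 0.39, lncRNA:noe at 0.38, IFT54 at 0.38 and CG5246 at 0.37. MtnD had 0.35, Fer1HCH 0.33 and ZnT35C -0.01 there, against a 5th to 95th percentile of -0.19 to 0.19. The lowest were Ccdc114 and CG5326, both at -0.40, followed by Ebp, CG13893, HP1c and Or13a, the last at -0.37.

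MtnB, MtnC and MtnD lie near each other on chromosome arm 3R, so the genes around MtnB were described by their order in a RefSeq gene table. Counting measured genes, MtnC is 5 genes before MtnB and MtnD is 3 genes after it. Of the 20 genes within 10 genes of MtnB 11 were called (55%), with MtnC and MtnD themselves among these calls. The share was 28.75% of the 80 genes from 11 to 50 away, 34.7% of 300 from 51 to 200 away and 36.3% of 1974 beyond 500. Besides the metallothioneins, the called genes among the 6 on each side were Stat92E, the transcription factor gene of the JAK/STAT pathway, at 0.18, Or92a at 0.09, eIF3g2 at -0.15, CG15922 at -0.14 and MFS9 at -0.12. The others, Ir92a, Gfrl, Tmlh, CG46441 and CG5180, were not called. With the line block Stat92E, Or92a, eIF3g2 and CG15922 were not called (adjusted p = 0.721, 0.714, 0.553 and 0.0813). MtnA, Ctr1B and Fer1HCH are on the same arm at positions -1079, -1268 and 1104 in this order of genes, and arms other than the small arm 4 had 34.1% to 37.2% of their genes called.

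Act5C and the array correlation, which moved with the class, bear on the counts as follows. With the Act5C difference as a covariate 4847 probe sets were called, of which 3762 were among the 5394, so that the remaining calls were lost and others gained. Without the 8 arrays of lowest correlation 5644 were called, of which 4887 were among the 5394.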

How the data were processed

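Whole-body RNA of pooled males was measured on 150 arrays, with a single array for each combination of line and diet. Values in the deposited table were read as log2 signal because they ran from 1.93 to 14.04, with 0 missing. Their normalization and its software: not given in the sources used here. The depth of an array has no count, so the number of arrays limits the precision. Of 18952 probe sets 183 array controls and MtnB's own probe set were left out, which gave 18768 tests without a signal filter. Exactly 1 gene symbol was given for 13646 of them, several for 402 and none for 4720, and only the first are named. Of these 13550 had their symbol in RefSeq's gene list (Release 6 plus ISO1 MT), used for names and gene order only. The build of the array design is not given, so no coordinates are printed.

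Arrays above 10 for MtnB formed the high class. The members, the 20 gene lists and the tests were chosen with earlier results of these data known. Classes were compared with limma 3.58.1 in R 4.3.3 over all probe sets, with Benjamini-Hochberg adjustment, and called at an adjusted p under 0.05. The code was tested on simulated data. Array quality was compared by 2-sided permutation with 1e+05 resamples. Lists are described by counts and medians, each gene by its probe set of highest mean, with no set test. Genes were named by a rule: up to 15 per direction with the largest difference, the metallothioneins and MTF-1, up to 4 called members per list and every call in metal response and transport, 6 genes on each side of MtnB, the 5 of smallest p for class by labelled diet, and the 6 of highest and lowest correlation with MtnB in each class. Other members named beside them were chosen after their values were seen.

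Pairing comes from the titles, where both diets carry the same line number, and is the basis of the fit with line as a block. To check it, each array's deviation from its diet mean was correlated with the others: r averaged 0.0665 for arrays sharing a labelled line and 0.000463 for different lines (permutation p = 0.0225), with 32 of 75 lines above 0.1. Alternatives were the block as a fixed or random term, diet as a covariate, each labelled diet or line number series alone, signal filter, quantile normalization, median centring, array weights, an Act5C covariate, a rank sum test, tissue covariates, other thresholds and all probe sets of a gene.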

Additional observations from a re-analysis of the deposited data

How the results depend on the processing

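With the labelled line as a fixed replicate block, the paired fit, 1684 probe sets were called in place of 5394. There were 2325 on arrays labelled lead, 454 in the 18 lines numbered above 200 and 3420 with the tissue covariates. These fits had fewer arrays or more terms, and whether that caused the lower counts was not tested. The arrays labelled control alone, also fewer than all arrays, gave 4559. As a random block, with a correlation of 0.0432, the labelled line gave 5280. The other alternatives gave 4040 to 6712 at the same threshold, or 3615 at 0.01 and 6618 at 0.1. The share of calls that were higher was 40.8%, with 52.5% under the fixed block and 57.3% in the lines above 200. Of 98 named genes called, 63 kept their call under the fixed block and 35 lost it with no change of direction. In the lines above 200 the numbers were 36 and 61. Many of these genes were named for a large difference in the main fit. Over all probe sets 1626 of the 5394 calls were made again under the fixed block, and 451 in the lines above 200. Reversals occurred with the tissue covariates, for Strn-Mlck (0.19), Irk3 (-0.020), Acp76A (0.11), TpnC4 (0.17) and Act88F (0.18), none of them called there, and the last 3 are not read because their own lists are among the covariates. Another reversal came in the lines above 200 for Arr1 (-0.041, not called). The cause was not tested. MtnD ranged from 3.29 to 3.95, MtnC from 1.97 to 2.76, Fer1HCH from 0.55 to 0.71, Fer2LCH from 0.67 to 0.89, CG10505 from 1.52 to 2.26 and MtnA from 0.20 to 0.50, all called in every alternative run, except MtnA in the lines above 200 (0.37). In the rank sum alternative every difference is between class medians, and it gave the 2.26 of CG10505. The other alternatives reached 2.01 for this gene, with array weights. CG10505 was removed by the signal filter and has no value there. At a threshold of 0.01 the share called was 40% within 10 genes of MtnB, with MtnC and MtnD among them. The share was 16.25% from 11 to 50 genes away, beside 25% from 51 to 200 away and 25.4% beyond 500. The likeness of arrays of a labelled line was 0.0398 from class means, no longer past the threshold (permutation p = 0.104). Tissue covariates, the class as a covariate for diet and class means for this likeness were added after seeing the data.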

Other observations

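Stress and defence genes that are not tied to metals were called at shares that can be set beside the 35.8% of all genes. None of the 7 heat shock genes was called by limma (1 at an unadjusted p under 0.05), with differences between 0.01 and 0.26, although the list's median of 0.21 lay above that of all genes, -0.021. Of 10 genes for antimicrobial peptides and their recognition 3 were called, close to that share. PGRP-SC2, a peptidoglycan recognition gene, was higher by 0.99 ± 0.124 (SE) (limma adjusted p = 3.33e-11) and PGRP-LB by 0.28, while the defensin gene Def was lower at -0.59. The calls of PGRP-LB and Def were lost with the line block (adjusted p = 0.187 and 0.065). Of 4 Turandot genes, TotC was higher by 0.81 ± 0.316 (SE) (limma adjusted p = 0.0425), a call lost with the block (adjusted p = 0.380).

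The lists of other tissues follow, with the same 35.8% as their background. Of 21 testis genes mia was higher at 0.39 and 4 were lower, among them sa at -0.24, nht at -0.21 and alphaTub84D at -0.14, while the 4 lower genes were not called with the block. Of 16 yolk and eggshell genes limma called none (1 at an unadjusted p under 0.05), with Yp3 at -0.70 and Yp1 at -0.57. On 1 high array the mean of this list, taken with the 2 members that share only the symbol pattern, reached 9.07. Of 6 Malpighian tubule genes the potassium channel genes Irk2 and Irk3 were higher by 0.25 and 0.22, neither with the block (adjusted p = 0.176 and 0.700). Of 5 fat body genes apolpp, the lipophorin precursor gene, was higher by 0.40 and Apoltp by 0.21, the latter not with the block (adjusted p = 0.465). Of 41 cytoplasmic ribosomal protein genes 3 were higher and 8 lower, with a median of -0.013. With the block 0 were higher and 4 lower, where 884 of all 18768 probe sets were higher and 800 lower. The lowest were RpS28-like at -0.24, RpL24-like at -0.15 and RpS20 at -0.14. This list was taken by symbol alone. RpS28-like averaged 6.92 in the high and 7.16 in the low class and RpL24-like 8.96 and 9.11, dimmer than the list's 11.10 and 11.13. Whether these 2 genes encode ribosomal proteins was not tested. The call of RpS28-like was lost with the block (adjusted p = 0.390).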
